A study of Mus musculus with 24 samples.

Results

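The RNA polymerase I machinery is described here through 10 genes: Polr1a, Polr1b, Polr1c, Polr1d and Polr1e for subunits of the enzyme, Ubtf and Rrn3 for initiation factors, and Taf1b, Taf1c and Taf1d for the promoter selectivity factor. They were chosen by name, and all 10 were found among the 55414 gene rows of the count tables. The libraries came from mouse 32D cells, a bone marrow line that needs interleukin 3 (IL-3) to grow and that the labels call lymphoblastocytes. The compared groups were wild type (WT) and 2 clones, KO1 and KO2, that the titles give as Nat10+/- and the genotype field as Nat10 deficiency. All 3 genotypes were grown in medium with IL-3 (10 ng/ml) and 10% serum, treated with actinomycin D at 0.05 µg/ml and collected at 0, 3, 6 and 9 h. With 2 libraries of polyadenylated RNA per genotype and time, 24 libraries fell into 12 groups. Each knockout label stands for 1 clone, so the altered allele cannot be told apart from other differences between clones. NAT10 converts cytidine in RNA to N4-acetylcytidine (ac4C), and the study measured mRNA half-life in its connection.

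RNA polymerase I transcribes the ribosomal DNA repeats in the nucleolus into the precursor of the large ribosomal RNAs. Ubtf (UBF) opens the repeat and bends its promoter, the selectivity factor SL1 (TBP with the Taf1 proteins) recognises the core promoter, and Rrn3 (TIF-IA) carries the competent polymerase to it. Growth factors and nutrients act on this step, and growing blood progenitors make ribosomes at a high rate. Actinomycin D blocks transcription by binding DNA, and at low doses the ribosomal DNA repeats are the most sensitive. The mRNAs measured here are themselves made by RNA polymerase II, and ribosomal RNA synthesis was not measured.

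The genes lie on separate chromosomes. On GRCm39, the build of the files, from first to last exon, Polr1a lies at chr6:71886037-71961919 (+), Polr1b at chr2:128942915-128968514 (+), Polr1c at chr17:46554846-46558980 (-), Polr1d at chr5:147013860-147048407 (+) and Polr1e at chr4:45018583-45036565 (+). Ubtf lies at chr11:102195386-102210568 (-), Rrn3 at chr16:13598572-13632703 (+), Taf1b at chr12:24548358-24608538 (+), Taf1c at chr8:120324610-120331961 (-) and Taf1d at chr9:15217510-15228287 (+). Read pairs were counted over exons without regard to strand. Exons of 7 genes shared no base with another gene, and those of Polr1a shared 1.56%. Taf1c shared 16.73% of its exon bases with Dnaaf1 on the opposite strand, which held 184 counts over all 24 libraries. Taf1d shared 13.6% with 12 genes, of which the 10 on its own strand had 0 counts. That does not show that they were silent, since a read over shared bases may be assigned to neither gene. The other pair lie on the opposite strand, 4931406C07Rik (2.63% of the bases, 28082 counts) and Cep295 (0.86%, 22837 counts), and reads of a shared stretch cannot be assigned to a strand.

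The promoters of the 10 genes were searched for 4 common motifs. Windows from 250 bases before to 50 after each RefSeq start site (table of build GRCm38.p6, all 10 genes matched, Taf1c and Ubtf with more than 1 window) were read on both strands. The ETS motif CCGGAAG occurred in 8.86% of the 32851 windows of all genes, and in a window of 5 of the 10 genes: Polr1c, Polr1e, Rrn3, Taf1b and Taf1c. The E-box CACGTG, the letters bound by Myc and Max, occurred in 7.15% of windows and in that of Rrn3, at -215 and -48. CCAAT occurred in 37.41% of windows and in those of Polr1a, Ubtf and Taf1c. TATAAA, found in 13.62% of windows, was in none of these genes' windows. No matches overlapped each other. The 100 bases before the start are shown for Rrn3, Polr1c, Taf1c and Polr1a, which hold the E-box, the ETS motif (its reverse complement in Taf1c) and CCAAT in capitals. Over 9 h on the TMM scale (defined below) the mRNAs of Rrn3, Polr1c and Taf1c rose in every genotype and that of Polr1a fell. In KO2 those rises were falls on the spike-in scale, which was not used for WT. Among the other genes with a motif, Polr1e (ETS) also rose in every genotype on the TMM scale. Taf1b, which holds the ETS motif too, and Ubtf, with CCAAT, fell in every genotype. A link between motif and course was not tested. The stretches lie at chr16:13780599-13780698 (+), chr17:46248046-46248145 (-), chr8:119605207-119605306 (-) and chr6:71908953-71909052 (+) of GRCm38.p6.
Rrn3: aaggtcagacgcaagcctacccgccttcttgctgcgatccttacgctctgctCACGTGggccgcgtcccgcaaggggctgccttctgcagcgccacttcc
Polr1c: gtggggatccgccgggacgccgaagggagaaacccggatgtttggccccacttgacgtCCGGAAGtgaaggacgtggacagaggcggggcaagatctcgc
Taf1c: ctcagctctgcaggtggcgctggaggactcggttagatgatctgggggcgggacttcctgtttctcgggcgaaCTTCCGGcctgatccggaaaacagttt
Polr1a: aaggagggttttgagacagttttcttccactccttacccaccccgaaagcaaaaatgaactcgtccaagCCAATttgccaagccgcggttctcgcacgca

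Sites of ac4C in mRNA have been described within runs of CNN, a C followed by any pair of bases, repeated. In the GENCODE coding sequences the longest such run held 7 repeats in Polr1b, Polr1e, Rrn3 and Taf1c, 6 in Polr1c and Ubtf, 5 in Polr1a, Taf1b and Taf1d, and 3 in Polr1d. The median over 12205 tested genes was 6, with quartiles of 5 and 7, so 9 of the 10 genes lay within the quartiles and Polr1d below them. The runs of 3 mRNAs whose change over time differed from WT in both clones are shown, with the repeated C in capitals. Ubtf also differed in both clones, and Polr1c and Taf1d in KO2, and their runs are not shown. Counted from the first coding base, the runs shown start at 210 in Polr1a, 2010 in Polr1b and 44 in Rrn3. The AU-rich pentamer ATTTA, found in mRNAs that decay fast, occurred 4 times in the 3′ untranslated region of Rrn3 and 2 times in those of Polr1a and Ubtf, against a median of 1 over the same genes. The other 7 mRNAs had 0. A run or pentamer is a description of letters, and acetylation was not measured in these files.
Polr1a: CttCaaCaaCtgCtc
Polr1b: CgcCaaCttCatCccCttCtc
Rrn3: CggCagCggCctCtgCcaCgc

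Gene counts per library ran from 15361601 to 17338939. The 10 genes had 192 to 4562 counts per library, and all 10 passed the filter on low counts, which left 16167 genes. Values are CPM, counts scaled to the library total with edgeR's TMM factors, so a change is relative to the average transcript of the same library. Spike-in counts were 120 to 257 in WT, 3742 to 5780 in KO1 and 5339 to 13774 in KO2. Yet the labels give an equal amount for every sample. The WT counts lay under the minimum of 1000 set here for using spike-in totals as an absolute scale. Within the clones spike-in totals could set one: the median of all genes over 9 h was then -1.03 in KO2 and 0.20 in KO1, against 0.09 and 0.12 by TMM. Rises of KO2 mRNAs below are given relative to that TMM centre, with the spike-in value where the sign changed. In WT, spike-in counts rose from 129 and 120 at 0 h to 257 and 198 at 9 h. Gene counts there went from 17298468 and 17338939 to 16199835 and 16215702, so the spike-in share rose. WT changes were not fitted on a spike-in scale. Whether WT rises, such as those of Polr1c and Rrn3, would keep their sign on it was not tested. Of 10 markers of a myeloid progenitor line, 8 were at or above 1 CPM on average in each genotype, with Kit (0.02 CPM or less) and Cd34 (0.64 or less) near 0. Of 10 lymphoid markers only Cd79a reached 1 CPM, and Ms4a1 and Il7r were at 0 in all 24 libraries. At 0 h the level of Nat10 itself was 112 ± 1.52 CPM (SD, n = 2) for WT, 103 ± 7.62 for KO1 and 97.2 ± 2.87 for KO2, lower by a called 0.12 and 0.21 on the log2 scale (values of -0.12 and -0.21; adjusted p = 0.0486 and 0.000291, edgeR). The KO1 call lies close to the threshold, with libraries at 97.7 and 108 CPM. The labels call the libraries of a group biological replicates without saying that cultures were separate, so the p-values measure the spread between libraries, which may be partly technical.

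**Figure D1:**
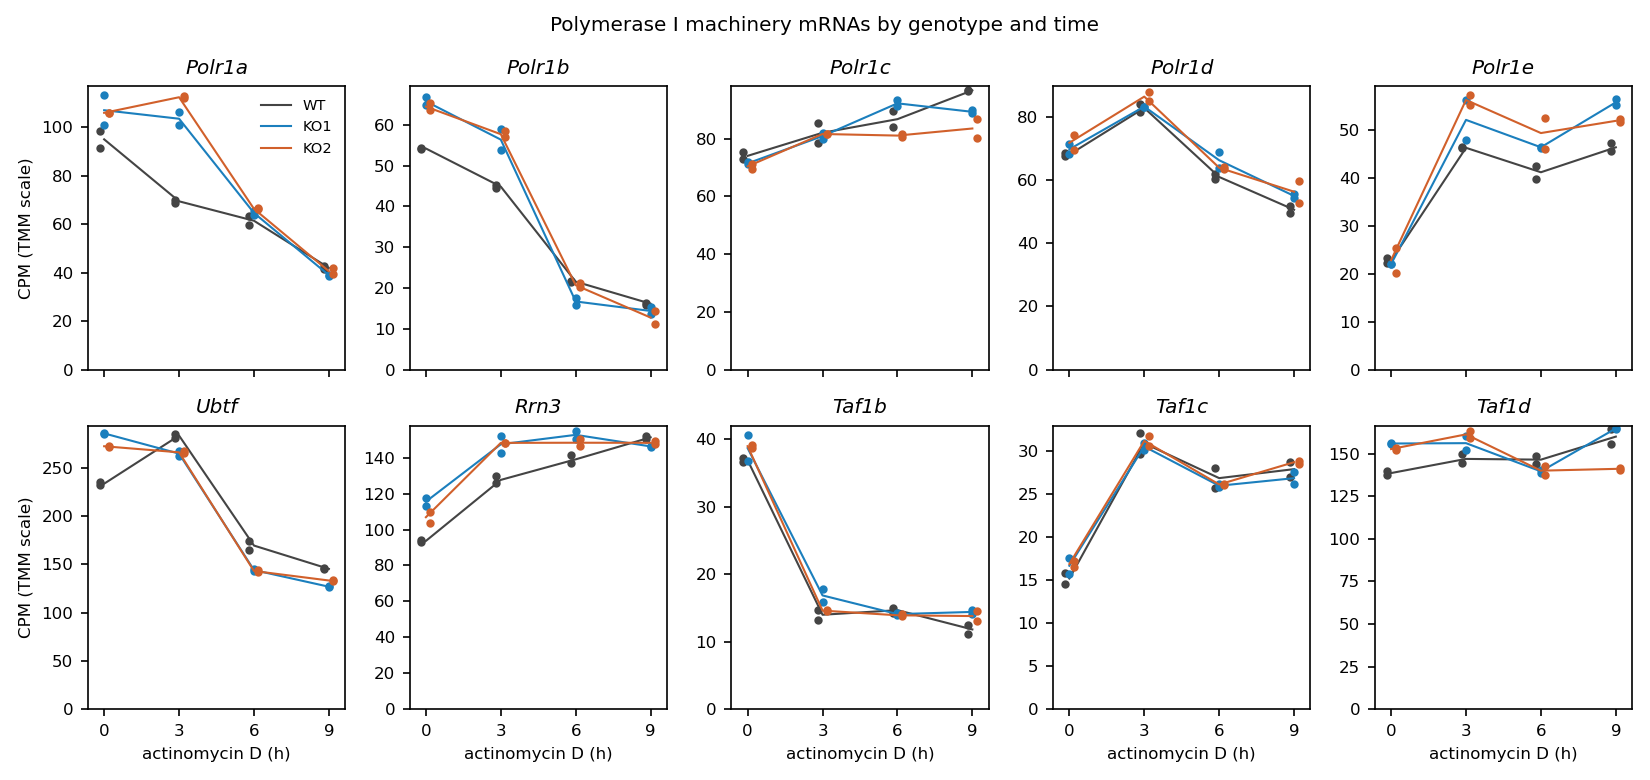
Level of each mRNA in CPM on the TMM scale (y axis from 0, a scale of its own in each panel) against hours of actinomycin D; points are libraries, shifted sideways by genotype, and lines join the means of 2. Polr1a, Polr1b and Taf1b end lowest relative to their start, Polr1e and Taf1c rise early on this scale, and the clones start above WT for Ubtf and Rrn3.

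Before the drug, every called difference of the clones from WT among the 10 genes was upward. In KO1 5 of the 10 genes were called higher and 0 lower (Polr1a, Polr1b, Ubtf, Rrn3 and Taf1d), where 15% of all genes were called higher and 12.3% lower. KO2 gave the same counts, 5 higher and 0 lower, beside 15.1% of all genes higher and 14.3% lower. Of the 9248 genes that average 10 CPM or more, as all 10 do, 41.1% were called in either direction in KO1 and 42.8% in KO2. A count of 5 in 10 is close to that share. Polr1c lay below WT without overlap in both clones (-0.05 and -0.07 on the log2 scale), and so did Polr1e in KO1, none of them called. The median difference of the 10 was 0.15 on the log2 scale in KO1 and 0.15 in KO2, against 0.01 and 0 for all genes tested. Both clones are compared with the same WT libraries, so the 2 comparisons are not independent. Summed over the 10 mRNAs, WT had 832 ± 10.6 CPM (n = 2), KO1 949 ± 9.06 and KO2 924 ± 0.35. Of 4 macrophage markers that could be tested, 3 were lower at 0 h in each clone. Over all times the sum of the 6 on the list ranged from 111 to 292 CPM in WT libraries, 54.1 to 268 in KO1 and 38.3 to 221 in KO2, with Marco at 0. Neutrophil granule markers summed to 60.5 to 114, 39.3 to 63.1 and 27.0 to 42.7, and the 8 stromal markers to at most 7.10, 1.22 and 1.81 (Cxcl12 at 0). Of 6 erythroid markers, 3 were higher at 0 h in KO2 and 0 lower, against 1 and 1 in KO1. Their sum over all times was 53.8 to 76.8 CPM in WT, 42.1 to 64.0 in KO1 and 59.4 to 90.2 in KO2, with Hbb-bs averaging 0.08, 1.59 and 8.04. Gata1, with the highest average on this list, was lower in both clones, at 43.4, 31.7 and 38.3 in WT, KO1 and KO2. Of 9 myeloid progenitor markers tested, 1 was higher and 3 lower in KO1 at 0 h and 1 and 5 in KO2, with Cebpa, a myeloid transcription factor, at -1.0 and -2.06 on the log2 scale. The part of these cell features in the differences was not tested, and in bulk RNA fewer cells of a type and less RNA per cell cannot be told apart.

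Per kilobase of exon, the WT order at 0 h ran from Ubtf (35.7 CPM per kb) and Polr1c (32.5) through Polr1d (22.4), Rrn3 (21.7), Taf1d (15.5), Taf1b (14.1), Polr1b (9.34), Polr1a (8.01) and Polr1e (5.83) to Taf1c (4.35). The lengths were the union of all annotated exons. The 2 WT libraries of neighbours in this order did not overlap, the closest being Polr1d (22.2 and 22.6) and Rrn3 (21.5 and 21.9).

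The large subunits fell furthest of the enzyme's mRNAs. Polr1a encodes the largest subunit, with most of the catalytic centre. Its WT libraries held 91.5 and 98.7 CPM at 0 h, 70.2 and 68.8 at 3 h, 59.6 and 63.3 at 6 h, and 41.4 and 42.6 at 9 h. In KO1 the libraries held 101 and 113, then 106 and 101, 65.6 and 63.8, and 39.1 and 38.8. KO2 held 106 and 106, then 113 and 112, 66.2 and 66.6, and 41.8 and 39.5. On this TMM scale the WT level had dropped by 3 h while both clones were still near their start, and by 9 h all 3 genotypes lay together, KO1 just below WT.

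At 3 h Polr1a was higher than in WT by 0.58 ± 0.052 (log2 ± SE; adjusted p = 1.19e-17, edgeR) in KO1 and by 0.70 ± 0.051 (adjusted p = 1.12e-22) in KO2. These were the largest differences of any of the 10 genes from WT at 3 h, in clone libraries that did not overlap WT. At 0 h the differences were 0.17 ± 0.048 (adjusted p = 0.00307) and 0.16 ± 0.048 (adjusted p = 0.00705). Those 0 h calls rest on single libraries: without WT replicate 1 they were 0.12 (adjusted p = 0.135) and 0.10 (adjusted p = 0.225), and without KO1 replicate 2 the KO1 difference was 0.09 (adjusted p = 0.321). At 6 h and 9 h Polr1a was not called in either clone, with log2 differences between -0.11 and 0.11, although library totals called it higher at 6 h (0.14 in KO1 and 0.21 in KO2).

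The time course of Polr1a differed by genotype. From 0 to 3 h it fell by 0.45 ± 0.052 in WT (adjusted p = 1.78e-13), while the change was -0.05 ± 0.048 in KO1 and 0.09 ± 0.048 in KO2 (-0.59 on the spike-in scale), neither called by TMM. In KO1 a fall was called on the spike-in scale (-0.21, adjusted p = 0.000316) and without 0 h replicate 1 (-0.13, adjusted p = 0.0417). The difference of change from WT was itself called, at 0.40 ± 0.071 in KO1 (adjusted p = 2.1e-06) and 0.54 ± 0.070 in KO2 (adjusted p = 5.99e-10). After 3 h the order turned round: Polr1a fell by 0.73 ± 0.059 in WT, 1.41 ± 0.055 in KO1 and 1.47 ± 0.054 in KO2. The clones' extra fall was 0.68 ± 0.082 and 0.74 ± 0.081 (adjusted p = 4.47e-11 and 1.11e-12). Both windows use the same 3 h libraries, so a high 3 h value enters the first window with one sign and the second with the other.

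Polr1b encodes the second largest subunit. WT libraries held 54.4 and 54.0 CPM at 0 h, 44.5 and 45.3 at 3 h, 21.7 and 21.5 at 6 h, and 15.9 and 16.4 at 9 h. KO1 held 66.8 and 64.8, then 53.7 and 59.1, 15.8 and 17.6, and 13.5 and 15.2. KO2 held 63.6 and 65.4, then 58.5 and 57.0, 20.3 and 21.1, and 14.3 and 11.2. Both clones lay above WT without overlap at 0 and 3 h and below it at 6 and 9 h. Of the 10 mRNAs, Polr1b fell furthest over 9 h in every genotype: it fell by 1.75 ± 0.081 in WT, fell by 2.19 ± 0.081 in KO1 and fell by 2.34 ± 0.082 in KO2.

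Polr1b was higher at 0 h by 0.28 ± 0.066 in KO1 (adjusted p = 0.000447) and 0.25 ± 0.066 in KO2 (adjusted p = 0.00158), and at 3 h by 0.33 ± 0.070 and 0.36 ± 0.070. At 6 h it was lower in KO1 by 0.37 on the log2 scale (SE 0.095, adjusted p = 0.00096), while KO2 was at -0.06 ± 0.090, not called. At 9 h the call was in KO2, at -0.34 ± 0.103 (adjusted p = 0.00533), and KO1 was at -0.17 ± 0.101. The KO2 value at 9 h was -0.18 (adjusted p = 0.31) without KO2 replicate 2, the lower of the pair, and -0.32 (adjusted p = 0.0506) without WT replicate 2. Between 3 and 9 h the fall exceeded that of WT by 0.50 ± 0.123 in KO1 and 0.70 ± 0.124 in KO2 (adjusted p = 0.00116 and 4.2e-06). The early changes were -0.27 ± 0.070 in WT, -0.22 ± 0.066 in KO1 and -0.16 ± 0.066 in KO2, and the differences of change, 0.05 ± 0.097 and 0.11 ± 0.097, were not called. The early KO1 call was lost without its 3 h replicate 1 (adjusted p = 0.094) and the KO2 call without any of its 4 libraries (adjusted p from 0.0536 to 0.151).

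Polr1c and Polr1d encode the assembly pair that polymerases I and III share. Polr1c changed little. WT libraries went from 72.9 and 75.3 CPM at 0 h to 97.0 and 96.7 at 9 h, KO1 from 71.1 and 71.8 to 89.9 and 88.8, and KO2 from 69.7 and 71.2 to 80.3 and 86.8. The 9 h libraries lay above the 0 h libraries in every genotype, and the WT libraries were highest at 9 h. The rise over 9 h was 0.39 ± 0.048 in WT, 0.32 ± 0.049 in KO1 and 0.25 ± 0.049 in KO2, where the spike-in scale gave -0.88. Against WT no difference was called at 0, 3 or 6 h, except with library totals in KO1 at 6 h (0.15, adjusted p = 0.00607). At 9 h the values were -0.12 ± 0.046 in KO1 (adjusted p = 0.0428) and -0.21 ± 0.046 in KO2 (adjusted p = 0.000101). In KO1 DESeq2 gave no call (adjusted p = 0.181), nor did fits without any of the 4 libraries compared, and the KO2 call held in all 10 alternatives.

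Polr1d rose from 68.6 and 67.6 CPM in WT at 0 h to 81.5 and 84.2 at 3 h and was at 51.7 and 49.6 at 9 h. The clones took the same course, from 68.2 and 71.4 through 83.3 and 83.3 to 55.8 and 54.2 in KO1, and from 74.3 and 69.4 through 87.9 and 85.0 to 59.8 and 52.8 in KO2. In each genotype the 3 h libraries were highest and the 9 h libraries lowest. The rise to 3 h was between 0.26 and 0.28 on the log2 scale and the fall from 3 to 9 h between 0.60 and 0.71, all called, with no call for a difference of change. With spike-in totals as the scale the first change was 0.09 in KO1, no longer called (adjusted p = 0.153), and -0.41 in KO2. Of the 8 comparisons with WT 1 was called, KO2 at 9 h (0.15 ± 0.058, adjusted p = 0.0283), and it was lost without KO2 replicate 1 (0.06, adjusted p = 0.551) or WT replicate 2 (0.13, adjusted p = 0.195). Library totals also called KO1 higher at 6 and 9 h and KO2 at 3 and 6 h (0.13 to 0.19), and RLE factors KO1 at 6 h (0.14). On the TMM scale the assembly partners ended on opposite sides of their start, Polr1c above and Polr1d below, but both below it in KO2 on the spike-in scale.

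Polr1e encodes PAF53, the subunit that pairs with PAF49 and contacts Ubtf. It rose more than any other of the 10. WT libraries held 23.2 and 22.2 CPM at 0 h, 46.5 and 46.2 at 3 h, 42.6 and 39.9 at 6 h, and 47.3 and 45.5 at 9 h. KO1 held 22.0 and 22.1, then 47.9 and 56.4, 46.3 and 46.5, and 55.2 and 56.4. KO2 held 20.2 and 25.5, then 57.4 and 55.2, 46.2 and 52.6, and 51.6 and 52.3. At 0 h both KO1 libraries lay just below WT and KO2 spanned it, and from 3 h on every clone library lay above both WT libraries.

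The rise of Polr1e by 3 h was 2.04-fold in WT, 2.37-fold in KO1 and 2.46-fold in KO2 (log2 1.03 ± 0.080, 1.25 ± 0.080 and 1.30 ± 0.078), with no called change from 3 to 9 h on the TMM scale. In that later window a rise was called in KO1 with RLE factors (0.17, adjusted p = 0.0209), library totals (0.32), spike-in totals (0.34) and without 3 h replicate 2 (0.22). Library totals also called a rise in WT (0.23, adjusted p = 0.00297), and spike-in totals a change of -0.57 in KO2 (adjusted p = 8.5e-12). On the spike-in scale the change over 9 h was 1.42 in KO1 and 0.05 in KO2. Against WT it was higher in KO1 at 3 h (0.17 ± 0.071, adjusted p = 0.0453) and 9 h (0.27 ± 0.068, adjusted p = 0.000868), and in KO2 at 3 h (0.28 ± 0.070) and 6 h (0.26 ± 0.071). The KO1 call at 3 h was lost with DESeq2 (adjusted p = 0.146) and with a replicate block (adjusted p = 0.0517), and fell to 0.05 (adjusted p = 0.734) without KO1 replicate 2. It was also lost without either WT library. The KO2 call at 6 h was 0.17 (adjusted p = 0.141) without KO2 replicate 2 and 0.22 (adjusted p = 0.0533) without WT replicate 2. RLE factors and library totals also called KO1 at 6 h (0.19 and 0.24) and KO2 at 9 h (0.20 and 0.23). The larger early rise of the clones was not called as a difference of change (adjusted p = 0.169 and 0.0698). It was called in KO2 with library totals (0.34, adjusted p = 0.0153) and without KO2 0 h replicate 2 (0.45, adjusted p = 0.00606), and in KO1 without KO1 3 h replicate 1 (0.33, adjusted p = 0.0417).

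Ubtf was the most abundant of the 10. WT libraries held 232 and 235 CPM at 0 h, 286 and 282 at 3 h, 174 and 165 at 6 h, and 145 and 146 at 9 h. KO1 held 286 and 286, then 263 and 267, 143 and 146, and 126 and 127. KO2 held 272 and 273, then 267 and 265, 145 and 142, and 132 and 134. Both clones stood above WT at 0 h and below it at all later times, with no overlap at any time.

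In KO1 Ubtf was higher than in WT by 0.29 ± 0.030 at 0 h (adjusted p = 1.59e-14) and lower by 0.10 at 3 h, 0.23 at 6 h and 0.20 at 9 h (values of -0.10, -0.23 and -0.20, SE 0.030 to 0.035, all called). KO2 gave 0.22 ± 0.030 (adjusted p = 6.8e-10), then -0.09, -0.24 and -0.12, all called. The 3 h calls in both clones and the 9 h call in KO2 were lost when library totals alone set the scale. The 3 h calls were also lost without WT replicate 1 (adjusted p = 0.0642 in KO1 and 0.0988 in KO2), KO1 replicate 1 (0.0775) or KO2 replicate 2 (0.0731). From 0 to 3 h Ubtf rose by 0.28 ± 0.030 in WT, fell by 0.11 ± 0.029 in KO1, and was at -0.03 ± 0.030 in KO2. In KO2 other scales called a fall, of -0.07 with RLE factors (adjusted p = 0.0396) or library totals (adjusted p = 0.0343) and of -0.71 with spike-in totals (adjusted p = 3.59e-33). The difference of change was -0.39 ± 0.042 in KO1 (adjusted p = 2.72e-13) and -0.31 ± 0.042 in KO2 (adjusted p = 1.38e-09). After 3 h, to 9 h, the change of Ubtf was -0.96 in WT, -1.06 in KO1 and -0.997 in KO2, all called falls, with no call for a difference.

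Rrn3 went the other way on the TMM scale, although its 9 h change in KO2 was -0.66 on the spike-in scale. This factor is the target of growth signals that switch polymerase I. WT libraries held 92.9 and 94.5 CPM at 0 h, 126 and 130 at 3 h, 137 and 141 at 6 h, and 152 and 151 at 9 h. KO1 held 113 and 118, then 152 and 143, 155 and 151, and 146 and 146. KO2 held 110 and 104, then 148 and 148, 150 and 146, and 149 and 147. On the TMM scale the clones began above WT and stayed near their 3 h level, while WT was still climbing and drew level with them at 9 h.

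The lead of the clones in Rrn3 shrank with time. In KO1 it was 0.30 ± 0.042 at 0 h (adjusted p = 2.44e-09), 0.21 ± 0.039 at 3 h, 0.14 ± 0.038 at 6 h and -0.05 ± 0.037 at 9 h. KO2 gave 0.19 ± 0.042 (adjusted p = 0.000138), 0.22 ± 0.039, 0.09 ± 0.037 and -0.03 ± 0.036. The 9 h values were not called, and the 6 h calls were lost without WT replicate 1 (adjusted p = 0.0518 in KO1 and 0.28 in KO2), that of KO2 also without any other library compared. From 3 to 9 h Rrn3 rose by 0.25 ± 0.038 in WT (adjusted p = 1.58e-08), against -0.01 ± 0.037 in KO1 and 0.001 ± 0.037 in KO2. Other scales called a change of the clones in this window. Library totals gave rises of 0.21 in KO1 and 0.23 in KO2, RLE factors a rise of 0.08 in KO2 (adjusted p = 0.0403), and the spike-in scale 0.23 in KO1 and -0.45 in KO2. The difference of change was -0.26 ± 0.054 (adjusted p = 9.89e-05) and -0.25 ± 0.053 (adjusted p = 0.000209). Over the first 3 h the difference of change was not called.

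**Figure D2:**
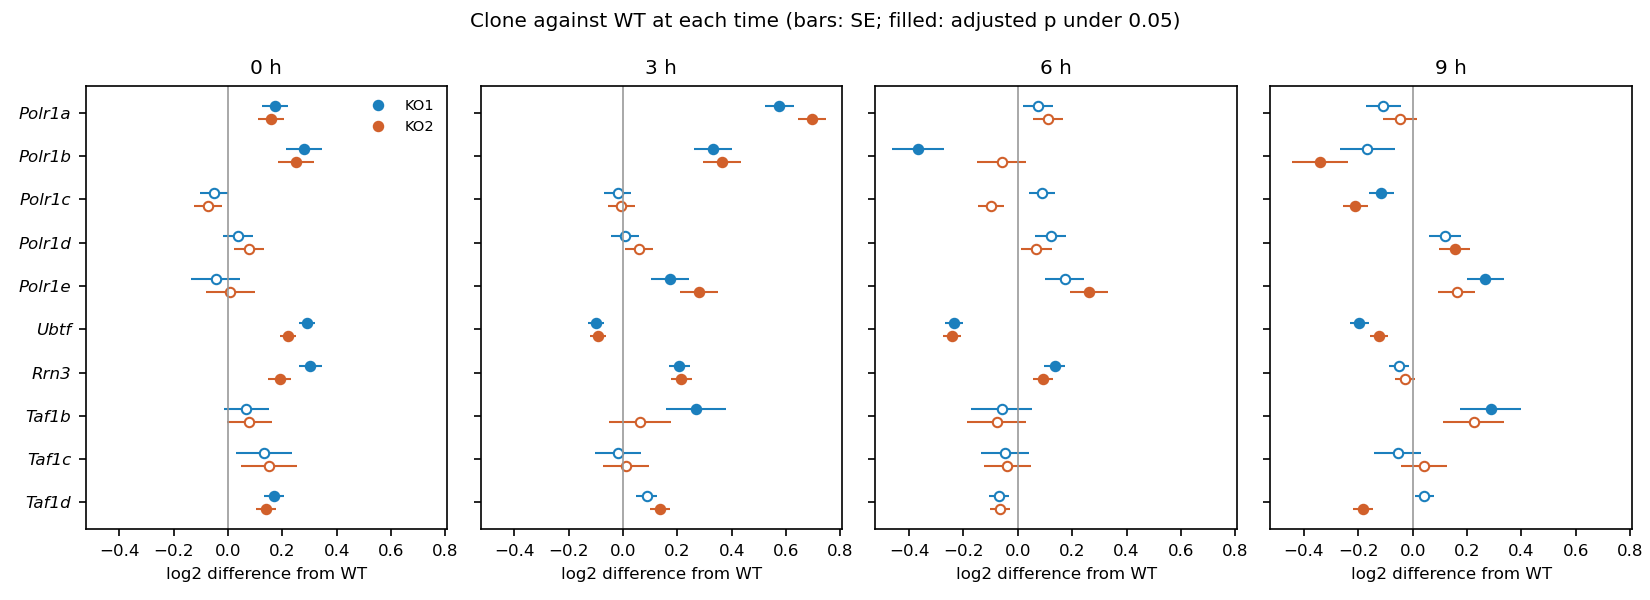
Log2 difference of each clone from WT (x axis) for the 10 genes (y axis) at 0, 3, 6 and 9 h of actinomycin D; points are fitted values, bars 1 SE, and filled points were called at an adjusted p under 0.05. Polr1a at 3 h stands furthest right (0.58 and 0.70), and Ubtf moves from the right of 0 at 0 h to its left afterwards.

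The 3 Taf1 subunits of the selectivity factor, which sits on the ribosomal DNA core promoter, took 3 different courses. Taf1b, a TFIIB-like subunit, fell earliest. WT libraries held 37.2 and 36.6 CPM at 0 h, 14.7 and 13.3 at 3 h, 14.3 and 15.1 at 6 h, and 11.2 and 12.4 at 9 h. KO1 held 40.6 and 36.8, then 17.8 and 15.9, 13.9 and 14.3, and 14.1 and 14.7, and KO2 held 39.2 and 38.8, then 14.5 and 14.7, 14.1 and 13.8, and 14.6 and 13.0. The 3 h libraries lay far below the 0 h libraries in all 3 genotypes, and no change from 3 to 9 h was called on the TMM scale with all libraries. A later fall was called in KO2 with spike-in totals (-0.54, adjusted p = 1.48e-05), in KO1 without 3 h replicate 2 (-0.31) and in WT without replicate 2 of either time (-0.32 each). By 3 h Taf1b had fallen by 1.40 ± 0.098 in WT, 1.20 ± 0.094 in KO1 and 1.42 ± 0.097 in KO2, with no call for a difference of change. KO1 was called higher than WT at 3 h (0.27 ± 0.110, adjusted p = 0.0462) and 9 h (0.29 ± 0.112, adjusted p = 0.0377), and both calls were fragile. Without KO1 replicate 1 or WT replicate 2 the 3 h value was 0.19 (adjusted p = 0.347) or 0.20 (adjusted p = 0.319), and the 9 h call was lost without either KO1 library or WT replicate 1 (adjusted p from 0.077 to 0.272).

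Taf1c was the least abundant per kilobase. WT libraries held 14.5 and 15.8 CPM at 0 h, 29.7 and 32.1 at 3 h, 28.0 and 25.7 at 6 h, and 28.7 and 27.0 at 9 h. It rose by 3 h by 1.03 ± 0.094 in WT, 0.87 ± 0.094 in KO1 and 0.89 ± 0.093 in KO2. Over 9 h it was at 0.77 in KO2 on the TMM scale and -0.36 on the spike-in scale. The clones' group means lay within 2 CPM of WT at every time, and in no comparison between genotypes was Taf1c called. The clone libraries overlapped those of WT in each case but KO2 at 0 h, where both lay just above.

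Taf1d moved least. WT libraries held 137 and 140 CPM at 0 h and 165 and 156 at 9 h, KO1 156 and 155 and then 164 and 165, and KO2 152 and 154 and then 140 and 142. All 4 clone libraries lay above both WT libraries at 0 h, and at 9 h KO2 lay below both other genotypes. The 0 h difference was 0.17 ± 0.037 in KO1 (adjusted p = 0.000115) and 0.14 ± 0.037 in KO2 (adjusted p = 0.00156). At 9 h KO2 was at -0.18 ± 0.036 against WT (adjusted p = 1.46e-05) and -0.22 ± 0.036 against KO1 (adjusted p = 4.09e-07). From 3 to 9 h the change in KO2 differed from that in WT by -0.32 ± 0.052 (adjusted p = 6.02e-07), and in KO1 by -0.05 ± 0.051, not called. By TMM the changes of Taf1d over time were at most 0.21 in size. Spike-in totals gave -0.60 in KO2 over the first 3 h, and several other changes lost their call or changed sign with another scale.

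In the counts of calls, the later times were mixed in direction. At 3 h 5 genes were higher and 1 lower in each clone, beside 20.1% of all genes higher and 16.7% lower in KO1 and 21.1% and 17.6% in KO2 (54.2% and 56.2% called in either direction among genes that average 10 CPM or more). At 6 h KO1 had 1 higher and 2 lower (18.4% and 17.4% of all genes) and KO2 2 higher and 1 lower (17.5% and 16.8%). At 9 h KO1 had 2 higher and 2 lower (19.3% and 15.1%) and KO2 1 higher and 4 lower (18.7% and 16.5%). Between the clones, 1 of the 10 was called at 0 h (Rrn3, 16.8% of all genes) and 0 at 3 h (12%). At 6 h 2 were called (Polr1b and Polr1c, 13.4%), and at 9 h 1 (Taf1d, 12.4%). These counts lie near the shares of all genes, and no share for genes that average 10 CPM or more is given here. The Rrn3 call was lost with DESeq2 (adjusted p = 0.0999) and without replicate 2 of either clone. That of Polr1b, 0.31 ± 0.094, was lost without KO1 replicate 1 or KO2 replicate 2 (adjusted p = 0.247 and 0.12), and that of Polr1c without KO1 replicate 2 (adjusted p = 0.0501). At 3 h DESeq2 also called 0, and the differences between clones ran from -0.20 to 0.12. The count of 0 comes from edgeR, whose unadjusted p was under 0.05 for 1 of the 10 (Polr1a).

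Over time most genes of the machinery were called, as were most genes tested, except in KO2 from 3 to 9 h, where 5 of the 10 were. From 0 to 3 h 7 rose and 3 fell in WT (38.6% and 33.5% of all genes), 5 rose and 3 fell in KO1 (37.9% and 33.4%), and 6 rose and 2 fell in KO2 (37.6% and 33.3%). In the second window, 3 to 9 h, 3 rose and 4 fell in WT (34.2% and 31.6%), 2 rose and 5 fell in KO1 (32.1% and 33%), and 0 rose and 5 fell in KO2 (32.5% and 33.7%). Over the whole 9 h all 10 were called in each genotype, with 5 higher and 5 lower in WT (43.2% and 38.5% of all genes), 5 and 5 in KO1 (42.2% and 38.3%) and 4 and 6 in KO2 (42% and 38.8%). Shares this high among all genes leave little to read from the counts. On the TMM scale the sum of the 10 mRNAs peaked at 3 h in every genotype and was lowest at 9 h. At 9 h WT had 749 ± 8.77 CPM, KO1 733 ± 0.39 and KO2 711 ± 3.42. The sum was not taken on the spike-in scale. That scale shifted the median log2 change of all genes from 0 to 3 h by -0.151 in KO1 and -0.652 in KO2. For the difference of change from WT, 2 genes were called in KO1 and 2 in KO2 over 0 to 3 h (25.8% and 24.7% of all genes), and 3 and 5 over 3 to 9 h, all toward a lower level in the clone (10.1% and 10.8% of all genes called lower). The share among genes that average 10 CPM or more, as all 10 do, is not given for these windows. It was larger than that of all genes in the comparisons with WT at 0 and 3 h, so these counts have no matched share beside them.

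**Figure D3:**
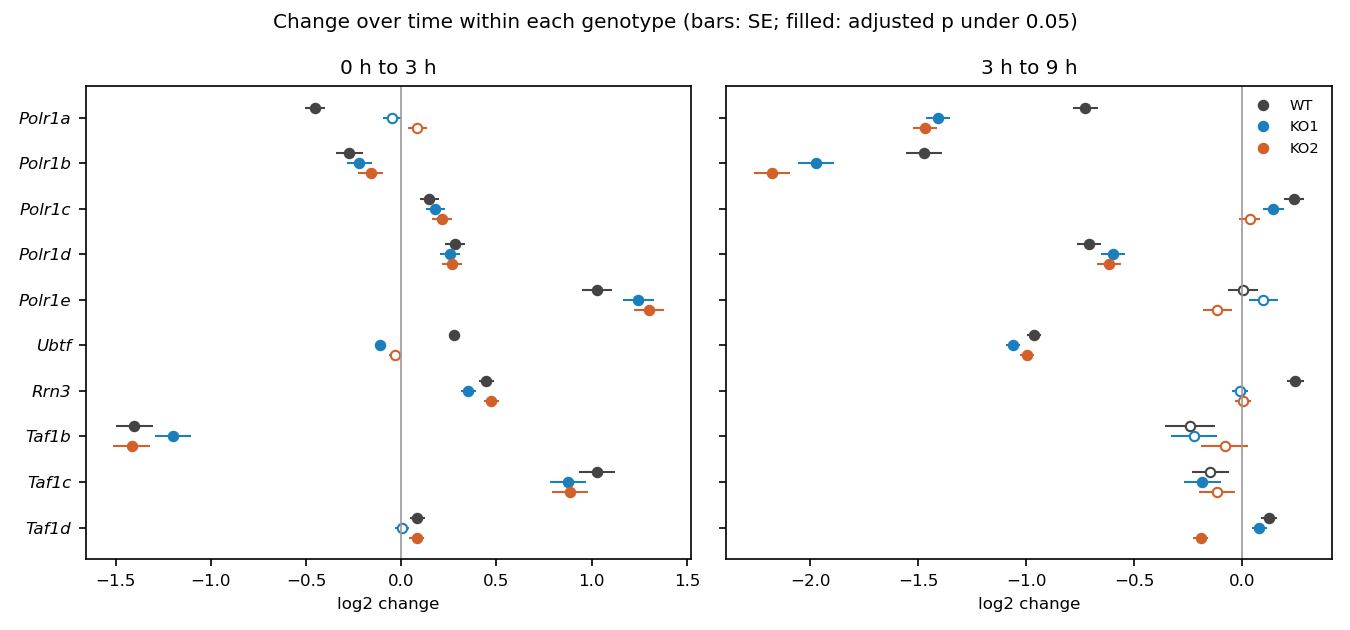
Log2 change of each mRNA (x axis, its range differs between panels) from 0 to 3 h and from 3 to 9 h in WT, KO1 and KO2; points are fitted values, bars 1 SE, and filled points were called at an adjusted p under 0.05. Taf1b falls and Polr1e and Taf1c rise in the first window, and Polr1a, Polr1b, Polr1d and Ubtf fall in the second.

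Over the 12 group means the genes fell into those that moved alike and those that moved apart. On log2 CPM Pearson's r was 0.97 between Polr1b and Ubtf, 0.96 between Polr1e and Taf1c, 0.94 between Polr1a and Polr1b and 0.91 between Polr1e and Rrn3. It was -0.95 between Taf1b and Polr1e and -0.94 between Taf1b and Taf1c, subunits of 1 complex. These 12 points share libraries, time points and scale, so the values are a description. Of 9561 other genes, those whose course was most like the mean course of the 10 were Psme3 (r = 0.99), Ddx21 and Dkc1 (0.98 each), and Mrpl12 and Utp6 (0.97 each), over 12 groups. The names depend on the scale: only 1 of these 5 was among the nearest 5 with library totals, and 3 of them over the 24 single libraries.

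Other genes of the polymerases give the setting. For the 0 h counts of these lists, 15% of all genes were called higher and 12.3% lower in KO1, and 15.1% and 14.3% in KO2. The shares for changes over time are those given above. Of 10 further polymerase I subunits and partners, among them TBP and the subunits shared with polymerase II, 1 was called in KO1 at 0 h (Polr2h, 0.37 higher) and 0 of 10 in KO2. In WT 5 rose and 3 fell by 3 h, the largest being Polr2l at 1.54 and Polr1f at -0.70, and 2 rose and 4 fell from 3 to 9 h, with Polr1g, the PAF49 partner of PAF53, at -1.05. In the clones over that window 0 rose and 7 fell in KO1, and 0 rose and 6 fell in KO2, with Polr1g at -1.17 and -1.28. Polr1e had no called change in that window on the TMM scale, and other scales called it in both directions, as given above. For these further lists, changes over time were fitted on the TMM scale alone.

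Of 15 genes for termination, chromatin and cofactors at the ribosomal DNA, 7 were higher and 2 lower in KO1 at 0 h, and 8 and 3 in KO2. Ddx21, a helicase of nucleolar RNA, was at 0.31 in KO1 and the terminator protein Ttf1 at 0.36 in KO2, and Cavin1, a transcript release factor, was lowest at -0.31 and -0.27. From 3 to 9 h 9 of 15 fell in WT and 8 in each clone, the largest fall being that of Mybbp1a at -1.55, -1.72 and -1.85 in WT, KO1 and KO2. In the same window 5 of 15 rose in each genotype, with Cavin1 at 1.29, 1.26 and 1.33.

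Of 21 polymerase III genes, 9 were higher and 0 lower in KO1 at 0 h and 8 and 0 in KO2, with Polr3d at 0.46 in KO1 and Gtf3a, which encodes TFIIIA, at 0.55 in KO2. Among all genes that average 10 CPM or more, 41.1% were called in either direction in KO1 and 42.8% in KO2, and the counts called in this list lie near those shares. The median difference of this list was 0.15 and 0.12, near the 0.15 of the 10 polymerase I genes. By 3 h Polr3g rose by 1.65, 1.16 and 1.26 in WT, KO1 and KO2, and Bdp1 fell by 1.53, 1.23 and 1.12. Of 8 polymerase II genes, 2 were higher and 1 lower in KO1 at 0 h and 1 and 2 in KO2. This list includes Polr2m, which does not encode a core subunit. Polr2m was the gene called higher in KO2 (0.31) and had the largest rise in KO1 (0.27). Polr2a, which encodes the largest subunit, rose by 1.76, 2.24 and 2.16 by 3 h in WT, KO1 and KO2. On the same TMM scale Polr1a, the counterpart of Polr2a in polymerase I, fell in WT and was not called in the clones. Spike-in totals called changes of Polr1a in both clones, -0.21 in KO1 and -0.59 in KO2. The difference between the lists was not tested.

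**Figure D4:**
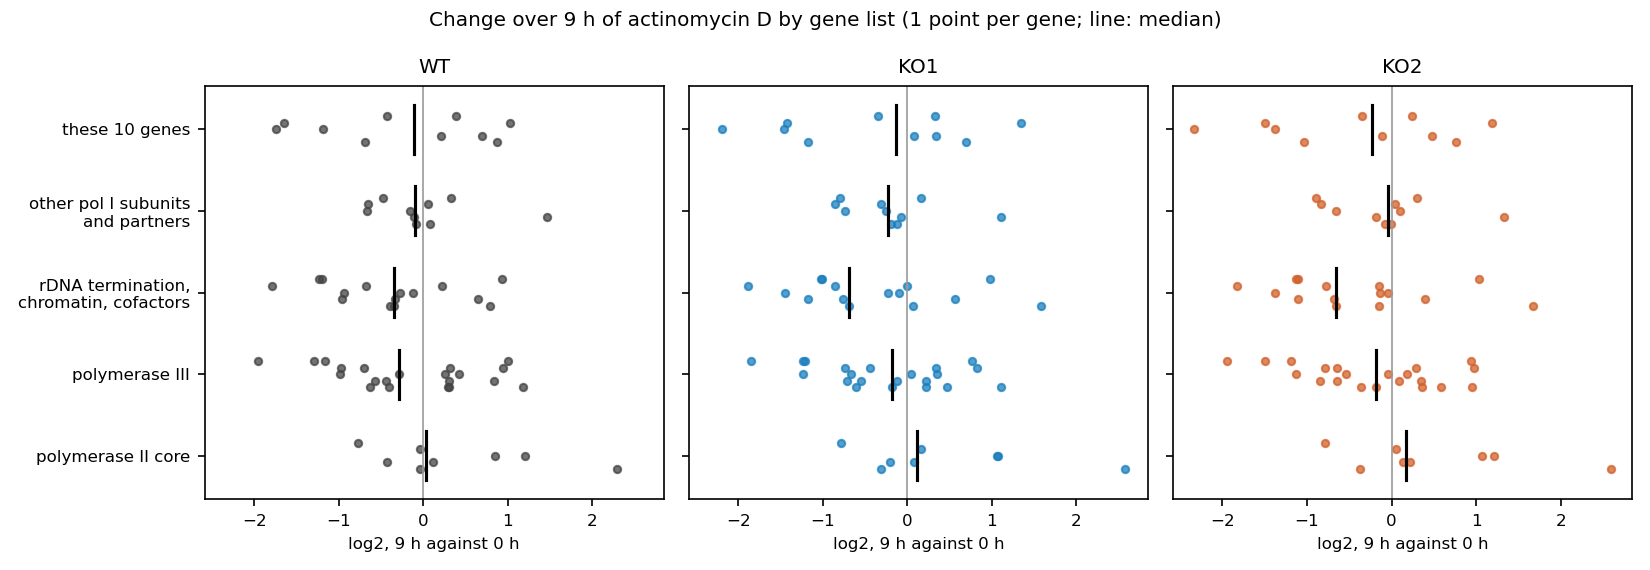
Log2 change from 0 to 9 h (x axis) in WT, KO1 and KO2 for the 10 genes and 4 further lists (y axis); each point is a gene, shifted up or down for legibility, and the black line is the list's median. The 10 genes spread from -1.75 to 1.03 in WT and from -2.34 to 1.18 in KO2, with medians of -0.11 and -0.23.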

How the data were processed

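The values were raw counts of read pairs per gene, 1 table per library, deposited by the authors. Per the file headers, the authors made the counts with featureCounts 1.6.3, which counted read pairs on exons by gene identifier and ignored strand, on an annotation path naming Ensembl 105 of GRCm39 joined to ERCC spike-ins. The submitters' processing notes also name STAR and DESeq2, whose versions and settings are not given in the sources used here. Gene names came from a GENCODE M21 table, which matched 52081 of 55414 identifiers and all 10 genes, with 92 spike-in rows kept apart. The 10 genes and the further lists were chosen with earlier results of these data known.

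Genes passing filterByExpr at a minimum count of 10 in edgeR 4.0.16 (16167) were scaled by TMM and fitted with the quasi-likelihood test, 1 coefficient per group of genotype and time, in 25 comparisons. Calls are at a Benjamini-Hochberg adjusted p under 0.05 over all genes, and SE is the log2 value over the root of F. The fit was tested on simulated data. Depth was 15361601 to 17338939 counts per library, which carry no molecular identifiers.

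The pairs of libraries differed by more than counting noise (chi-square per degree of freedom 1.43 to 2.31) and were kept apart. Named genes are all 10, Nat10, the called gene of each list with the largest rise and fall (mean of at least 5 CPM), and the 5 genes most like the mean course. Alternatives were RLE factors, library totals, DESeq2 1.42.0, no filter, the compared libraries alone, a replicate block, spike-in totals within the clones (at least 1000 counts) and leaving out each library.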

Additional observations from a re-analysis of the deposited data

Results flagged for a closer look

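The change over time differed between a clone and WT, by the interaction term of the edgeR fit, for 12 combinations of gene, clone and window. From 0 to 3 h the difference of change (clone minus WT, log2) was 0.403 for Polr1a and -0.389 for Ubtf in KO1, and 0.538 and -0.313 in KO2. These are the 2 mRNAs whose WT libraries moved, Polr1a down and Ubtf up, while those of KO2 stayed near their start on the TMM scale. With spike-in totals the KO2 changes were -0.59 for Polr1a and -0.71 for Ubtf, both called.

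From 3 to 9 h it was -0.684 for Polr1a, -0.497 for Polr1b and -0.256 for Rrn3 in KO1. In KO2 it was -0.743 for Polr1a, -0.703 for Polr1b, -0.206 for Polr1c, -0.245 for Rrn3 and -0.317 for Taf1d. All 8 values are negative, and the 2 clones share the WT libraries. Polr1c in KO2 (adjusted p = 0.0204) lost its call with DESeq2 (adjusted p = 0.125), with RLE factors and without 5 of the 8 libraries, among others, and the other 11 held it in all 14 alternatives run.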

How the results depend on the processing

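A combination of gene and comparison counted as kept if its call and direction held, or if it was called in neither fit, whatever its sign. Of 250 combinations, DESeq2 kept 240, RLE factors 234, library totals 218, no filter 239 and the compared libraries alone 235. The numbers of the labels do not say what they pair, and same-numbered libraries did not deviate together (r from -0.041 to 0.153 over 66 pairs of groups). The replicate block changed 1 of 250, Polr1e in KO1 at 3 h (adjusted p = 0.0517). Calls in all 10 alternatives against WT were kept at 0 h by Polr1b, Ubtf, Rrn3 and Taf1d in both clones, and at 3 h by Polr1a, Polr1b and Rrn3 in both and by Polr1e and Taf1d in KO2. At 6 h they were kept by Polr1b and Ubtf in KO1 and by Ubtf in KO2, and at 9 h by Polr1e and Ubtf in KO1 and by Polr1c and Taf1d in KO2.

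Counts of called genes moved as follows. For KO1 against WT at 6 h (3 called) RLE gave 5, library totals 7 and the compared libraries alone 5, and for KO2 (3 called) library totals gave 5. For KO1 at 9 h (4 called) no filter gave 2. For KO2 against KO1 at 0 h (1 called) RLE, library totals, the compared libraries and DESeq2 gave 0 and no filter 2, at 3 h (0 called) library totals and the compared libraries gave 1, and at 9 h (1 called) library totals gave 2. Leaving out 1 library gave 1 to 2 for KO2 against WT at 6 h, 2 to 3 for KO1 and 3 to 5 for KO2 against WT at 9 h, 0 to 1 and 1 to 2 for KO2 against KO1 at 0 h and 6 h, and 4 to 6 for KO1 from 3 to 9 h.

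Signs changed with scale alone, and are listed here where TMM or the other scale gave a call. Library totals gave Taf1d -0.021 in WT over 0 to 3 h, Rrn3 0.21 and Taf1c 0.035 in KO1 over 3 to 9 h, and Taf1d 0.037 and 0.083 in KO2 over 3 to 9 h and 0 to 9 h. WT was not fitted with spike-in totals, so a change of its signs on that scale was not tested. Spike-in totals gave KO1 Taf1d -0.161 (0 to 3 h), and Rrn3 0.228 and Taf1c 0.054 (3 to 9 h). In KO2 they gave Polr1a -0.59, Polr1c -0.462, Polr1d -0.408, Rrn3 -0.202 and Taf1d -0.596 over 0 to 3 h, Polr1c -0.42 and Rrn3 -0.453 over 3 to 9 h, with 10 called in place of 5, and Polr1c -0.882, Rrn3 -0.656 and Taf1c -0.362 over 0 to 9 h. The median of all genes then moved to -0.547, -0.445 and -1.026. At 2 libraries a group, small differences are limited by the spread between them.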
